A study of Homo sapiens with 96 samples.

Results

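The chromosomal passenger complex is the protein assembly that carries the kinase Aurora B through cell division. Its genes were taken here as the rows of the count table with the symbols AURKB, INCENP, BIRC5 and CDCA8, which gave 4 genes of the 60675 listed, each with 1 row. They were followed in A549 cells, a human lung adenocarcinoma line, in 96 RNA-sequencing libraries that fall into 32 groups of 3. In batch 1 the cells received an ethanol or a water extract of Paeoniae Radix (peony root) at 20, 100 or 500 µg/mL, or the vehicle of that batch. In batch 2 they received paeoniflorin, albiflorin, hederagenin, oleanolic acid, catechin, gallic acid, paeonol or benzoic acid, each at 0.4, 2 or 10 µM, or the vehicle of that batch. Aurora B is singled out in the study's own title, so these genes are not independent of the libraries described. How long the cells were exposed, and to which vehicle, was not given in the sources used here, and no group carries a genetic change beyond those of the line itself. The labels number the libraries of a group but do not say that they came from separate cultures, so p-values measure the spread between libraries, which may be technical.

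Aurora B, encoded by AURKB, is the enzyme of the complex. INCENP is the scaffold whose carboxy-terminal IN box binds and activates the kinase, while its other end joins survivin (BIRC5) and borealin (CDCA8), the pair that targets the complex. Survivin reads a phosphate that the kinase haspin places on histone H3, and borealin binds the shugoshin proteins and nucleosomes, so that the complex gathers at inner centromeres before anaphase. There Aurora B destabilises faulty attachments of microtubules to kinetochores, and at anaphase the complex moves to the spindle midzone, where it acts in cytokinesis. Transcripts of all 4 genes peak late in the cell cycle in proliferating cells. In bulk RNA, a smaller share of cells in mitosis and less of a transcript per cell cannot be told apart.

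The members lie on 3 chromosomes, and none overlapped another gene on either strand in the GENCODE annotation (version 29, GRCh38). AURKB (ENSG00000178999) spans chr17:8204733-8210600 on the minus strand and has 9 exons in its principal transcript. INCENP (ENSG00000149503) spans chr11:62123973-62153163 on the plus strand with 18 exons. BIRC5 (ENSG00000089685) spans chr17:78214186-78225636 on the plus strand with 4 exons, and CDCA8 (ENSG00000134690) spans chr1:37692418-37709719 on the plus strand with 10 exons.

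The promoters were read because genes of late mitosis often carry a CHR element (cell-cycle genes homology region) close to the start and CCAAT boxes before it. The RefSeq promoter table (GRCh38.p14) held entries for 3 of the 4 members. Each line gives the last 150 bases before the RefSeq start, 5′ to 3′ on the gene's strand, and capitals mark CCAAT, its reverse complement ATTGG, and TTTGAA, the first form of the CHR.
AURKB, chr17:8210250-8210399, minus strand: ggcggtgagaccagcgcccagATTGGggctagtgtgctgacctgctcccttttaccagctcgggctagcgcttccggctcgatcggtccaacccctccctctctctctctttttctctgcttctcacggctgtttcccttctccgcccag
INCENP, chr11:62123861-62124010, plus strand: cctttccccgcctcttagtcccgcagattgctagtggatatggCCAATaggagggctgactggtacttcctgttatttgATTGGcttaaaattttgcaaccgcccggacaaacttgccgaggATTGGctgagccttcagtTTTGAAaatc
CDCA8, chr1:37692366-37692515, plus strand: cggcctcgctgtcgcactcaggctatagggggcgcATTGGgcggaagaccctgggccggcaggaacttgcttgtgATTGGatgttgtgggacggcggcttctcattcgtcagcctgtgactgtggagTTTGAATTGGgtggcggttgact

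INCENP and CDCA8 each held 3 CCAAT boxes and 1 TTTGAA in the 250 bases before the RefSeq start. In CDCA8 the last CCAAT box and TTTGAA overlap by 1 base. In AURKB 1 CCAAT box was found, on the opposite strand, and neither TTTGAA nor TTTAAA, the second form of the CHR. The E2F-like letters GCGGGAA were in none of these windows. Searched on both strands, CCAAT was in 32% of the 35116 windows of that length in the table, TTTGAA in 13.3%, TTTAAA in 11.3% and GCGGGAA in 5.52%. The earliest start that GENCODE gives lies 351 bases before the RefSeq start used for AURKB. It lies 38 bases before that of INCENP and 98 bases before that of CDCA8, so a window can include transcribed bases of another isoform. The whole 250-base window of AURKB lies after that earliest start, within the annotated gene. Of the INCENP and CDCA8 windows, 212 and 152 bases lie before it. These matches describe letters only.

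Levels of the members and of listed genes are given in CPM (counts over the library total, scaled by edgeR's TMM factors). For the epithelial, A549, mesenchymal and blood markers, CPM are counts over the library total without those factors. Totals per library were 17.9 to 28.1 M counts in batch 1 and 15.7 to 35.6 M in batch 2, and the members were well covered: the lowest count of any member in any library was 349, for CDCA8. Divided by the length of the principal transcript in the vehicle libraries, AURKB was the most abundant member, with 75.5 CPM per kilobase in batch 1 and 65.8 in batch 2. BIRC5 followed with 53.04 and 57.58 CPM per kilobase, then INCENP with 25.8 and 28.5, and CDCA8 was lowest with 17.6 and 17.9. Without that division BIRC5 was highest, with 139.5 and 151.4 CPM, against 92.6 and 80.7 CPM for AURKB. The order per kilobase rests on 1 transcript length per gene, and isoform use was not measured. Epithelial and A549 markers were present in every library (KRT8 had a median of 3429 CPM), CDKN2A, which the line lacks, was at 0 in 93 of the 96 libraries, and the blood markers PTPRC, HBB, CD3E and LYZ reached at most 0.255 CPM.

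All 4 members fell in A549 cells given the ethanol extract at 500 µg/mL. The kinase gene AURKB had 48.03, 49.8 and 49.9 CPM in the 3 libraries given this extract, against 91.5, 93.8 and 92.6 CPM in the vehicle libraries of the same batch. The scaffold gene INCENP had 62.4, 63.2 and 65.3 CPM, against 90.1, 99.9 and 96.5 CPM in vehicle. For neither gene did the highest treated library come near the lowest vehicle library. Of the targeting subunits, BIRC5 (survivin) had 87.7, 83.4 and 82.99 CPM with the extract, against 135.0, 148.8 and 134.7 CPM in vehicle, and CDCA8 (borealin) had 24.9, 24.1 and 24.4 CPM, against 43.9, 42.8 and 43.7 CPM in vehicle. These groups were also fully apart, in a comparison where 34.4% of all genes tested passed as lower. The summed level of the 9 A549 markers moved with these falls: it was 8108, 8029 and 7893 CPM in the 3 libraries given the ethanol extract at 500 µg/mL, against 12166, 13234 and 11531 CPM in vehicle and 12234 to 14066 CPM in the other 15 treated libraries of the batch. Its part in the falls was not tested.

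**Figure D1:**
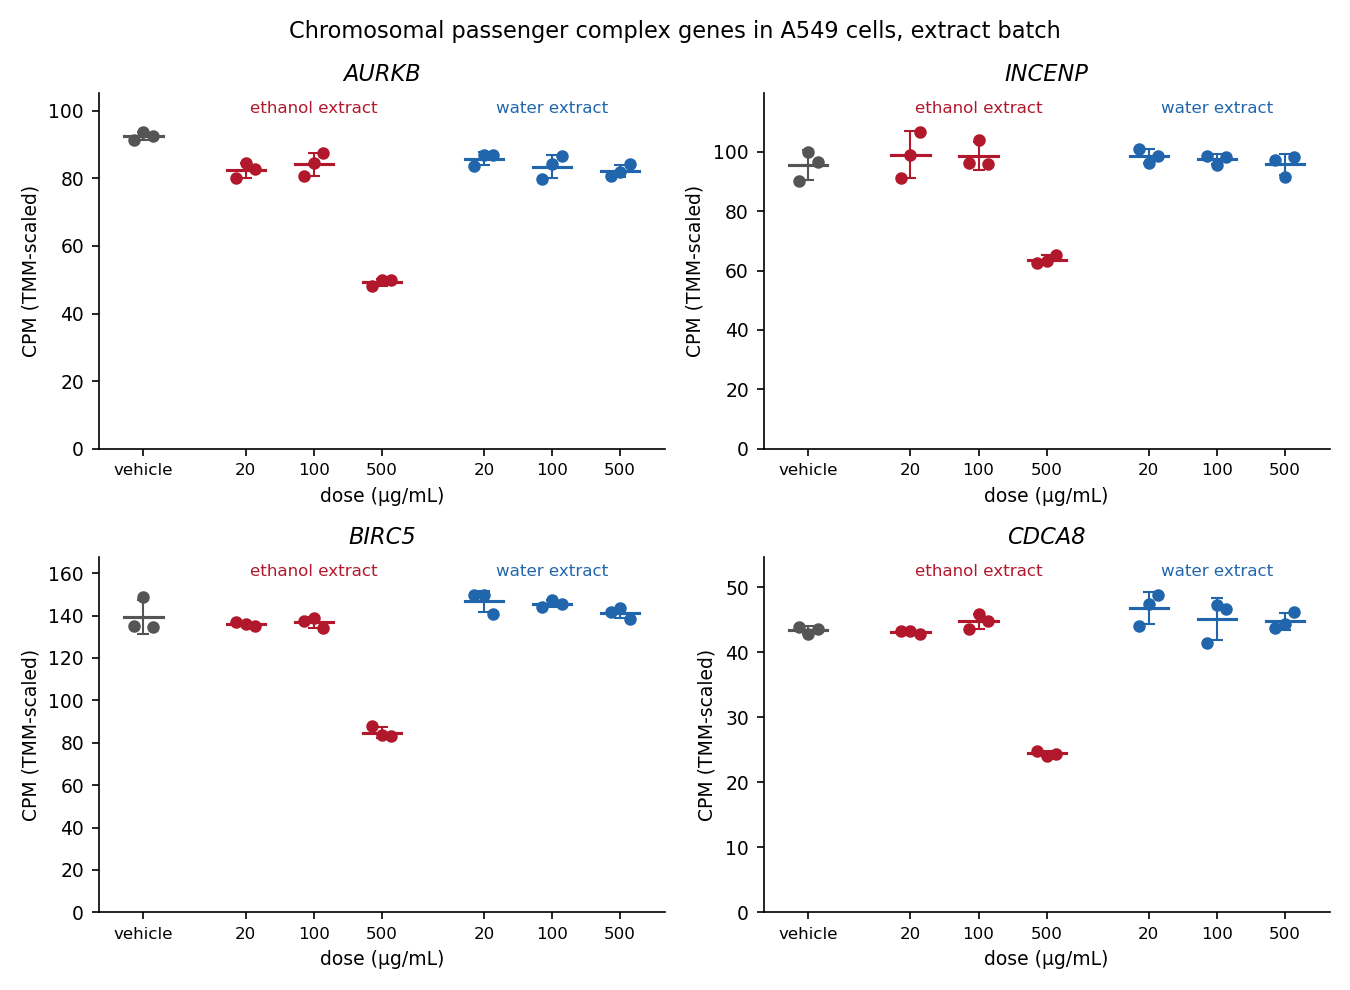
CPM of each member (vertical axes, from 0) in the 21 batch 1 libraries, with vehicle at the low end, then the ethanol extract and the water extract at 20, 100 and 500 µg/mL; points are libraries and bars are the mean ± SD of 3. The ethanol extract at 500 µg/mL is the lowest group in all 4 panels, while the vehicle libraries stand above all other groups only for AURKB.

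The falls differed in size between the members. AURKB averaged 49.2 ± 1.054 CPM with the ethanol extract at 500 µg/mL and 92.6 ± 1.18 CPM in vehicle (SD, n = 3 each), a log2 change of −0.91 with SE 0.04 and an adjusted p of 1.89e-15 in edgeR's quasi-likelihood test. CDCA8 averaged 24.5 ± 0.41 CPM with the extract and 43.4 ± 0.58 CPM in vehicle, which is −0.83 in log2 units (SE 0.05, edgeR adjusted p = 6.54e-13). BIRC5 averaged 84.7 ± 2.63 CPM with the extract and 139.5 ± 8.03 CPM in vehicle, a difference of −0.72 in log2 units (SE 0.04, edgeR adjusted p = 1.34e-13). INCENP changed least, with means of 63.6 ± 1.499 CPM with the extract and 95.5 ± 4.96 CPM in vehicle, −0.58 on the log2 scale (SE 0.05, edgeR adjusted p = 6.43e-10). The 4 calls must be read against a comparison in which 69.1% of the 16854 genes tested passed the threshold of an adjusted p under 0.05, with 34.4% lower and 34.7% higher. The median log2 change was −0.77 over the members and 0.00 over all genes tested.

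Because INCENP fell less than the kinase gene, the ratio of the subunits within a library moved. The log2 ratio of INCENP to AURKB CPM was 0.37 ± 0.02 with the ethanol extract at 500 µg/mL and 0.04 ± 0.06 in vehicle (SD, n = 3 each), a difference of 0.33. That of BIRC5 to AURKB was 0.78 ± 0.08 with the extract and 0.59 ± 0.07 in vehicle, and that of CDCA8 to AURKB was −1.01 ± 0.05 with the extract and −1.09 ± 0.04 in vehicle. All 3 differences had an exact permutation p of 0.1 (2-sided), the smallest that 3 libraries against 3 allow, so the design cannot take them below 0.05. Set against the water extract at 500 µg/mL the difference was 0.15 for INCENP and −0.13 for CDCA8 (exact p = 0.1 each) and 0.00 for BIRC5 (exact p = 1). The positive shift of CDCA8 relative to AURKB was thus seen against vehicle and not against the water extract.

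The step in the members lay between 100 and 500 µg/mL of the ethanol extract. Comparing 500 with 100 µg/mL, where 65.8% of genes passed (33.2% as lower), the log2 differences were −0.77 for AURKB, −0.63 for INCENP, −0.69 for BIRC5 and −0.87 for CDCA8, all past the threshold (edgeR adjusted p at most 1.58e-10). Comparing 100 with 20 µg/mL, where 1.79% of genes passed, no member did, and the log2 differences ran from −0.00 for INCENP to 0.05 for CDCA8. With the water extract no step was called: 500 against 100 µg/mL, with 1.16% of genes passing, gave log2 differences of −0.04 for BIRC5 to −0.02 for CDCA8, and 100 against 20 µg/mL, with 0.0119% passing, gave −0.05 for CDCA8 to −0.01 for BIRC5.

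At the same dose of 500 µg/mL the 2 extracts differed for every member. AURKB was at 49.2 CPM with the ethanol extract and 82.3 with the water extract, a log2 difference of −0.74 (95% interval −0.82 to −0.66, edgeR adjusted p = 1.09e-13), with 66.1% of genes passing in that comparison, 33.3% as lower. INCENP differed by −0.59 (95% interval −0.69 to −0.48), BIRC5 by −0.74 (−0.82 to −0.66) and CDCA8 by −0.87 (−0.98 to −0.77) on the log2 scale. At 100 µg/mL, where 1.77% of genes passed, no member was called, and the differences ran from −0.09 (BIRC5, 95% interval −0.17 to −0.01) to 0.02 (INCENP). At 20 µg/mL 0% of genes passed in edgeR's test, and DESeq2's Wald test called 0 as well. An unadjusted p under 0.05 was found in edgeR for 735 of the 16854 genes, below the 5% that no difference would give. There CDCA8 had the difference farthest from 0, −0.12 (95% interval −0.21 to −0.02).

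AURKB alone of the members was also called lower than vehicle at lower doses and with the water extract, by small amounts. It had 80.5, 84.6 and 87.4 CPM with the ethanol extract at 100 µg/mL, which is −0.14 in log2 units (SE 0.04, edgeR adjusted p = 0.0147), where 17.5% of genes passed, 9.23% as lower. At 20 µg/mL of that extract it had 80.1, 84.5 and 82.7 CPM, or −0.17 against vehicle on the log2 scale (edgeR adjusted p = 0.00881), where 7.45% passed, 3.82% as lower. With the water extract at 500 µg/mL it had 80.7, 81.9 and 84.2 CPM and a log2 change of −0.17 (edgeR adjusted p = 0.00279, 21.1% of genes passing, 11.4% as lower), and at 100 µg/mL 79.7, 84.2 and 86.5 CPM and −0.15 (edgeR adjusted p = 0.0135, 12.6% passing, 6.98% as lower). None of these libraries reached the lowest vehicle library. At 20 µg/mL the change with the water extract, −0.11, missed the threshold (edgeR adjusted p = 0.0748, 9.51% of genes passing). These 5 comparisons use the same 3 vehicle libraries, which are the highest group of batch 1 for AURKB. The share of counts from mitochondrially encoded genes was 14.2 to 18.6% in the treated libraries and 16.9 to 22.1% in those vehicle libraries, and its part in the AURKB calls was not tested. The calls with the ethanol extract at 100 and 20 µg/mL and with the water extract at 100 µg/mL were lost when only the 2 groups compared were fitted (edgeR) and without replicate 1 of the treated group (edgeR adjusted p = 0.0933, 0.0566 and 0.0842). INCENP, BIRC5 and CDCA8 passed in none of these 5 comparisons, with log2 changes of −0.04 to 0.11.

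With the ethanol extract at 500 µg/mL, 34.4% of all genes tested passed as lower than vehicle. How many of all genes lay fully apart was not counted. Ranked by mean, the ethanol extract at 500 µg/mL was the lowest of the 7 groups of batch 1 for every member and did not overlap the group next above it. Above it the order carried little: for INCENP and CDCA8 all other neighbouring groups overlapped, for AURKB the only other gap was between the water extract at 20 µg/mL and vehicle, and for BIRC5 it was between the water extract at 500 and at 100 µg/mL (141 and 146 CPM). The highest group was vehicle for AURKB (92.6 CPM), the ethanol extract at 20 µg/mL for INCENP (98.9 CPM) and the water extract at 20 µg/mL for BIRC5 (147 CPM) and CDCA8 (46.8 CPM).

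The genes around the complex were followed in 6 lists, described by counts of calls with the ethanol extract at 500 µg/mL against vehicle. Of 10 genes that recruit or accompany the complex at centromeres, 8 fell, 1 rose and 1 did not pass, with a median log2 change of −1.27, beside 34.4% of all genes tested that fell and 34.7% that rose. BUB1, the kinase whose histone mark brings in the shugoshins, averaged 20.3 ± 1.063 CPM with the extract and 112.5 ± 2.10 CPM in vehicle, a log2 change of −2.47. CDC20, the activator of the anaphase-promoting complex, averaged 36.4 CPM with the extract and 107 CPM in vehicle (log2 −1.56), and CCNB1, the cyclin of mitotic entry, 46.7 CPM with the extract and 161 CPM in vehicle (log2 −1.79). HASPIN, whose mark survivin reads, was the gene of that list that rose, with 26.2 ± 0.37 CPM with the extract and 17.3 ± 0.57 CPM in vehicle (log2 0.60). CDK1, the partner of cyclin B, had 69.5 ± 6.75 CPM with the extract and 70.2 ± 5.61 CPM in vehicle (log2 −0.02, edgeR adjusted p = 0.871).

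Of 18 substrates of Aurora B and partners at the midzone, 14 fell and 4 rose (median −0.60), again beside 34.4% of all genes falling and 34.7% rising. KIF20A, the kinesin that carries the complex to the midzone, averaged 24.7 CPM with the extract and 93.2 CPM in vehicle (log2 −1.92), and PRC1, which bundles midzone microtubules, 152 CPM with the extract and 232 CPM in vehicle (log2 −0.61). VIM, an intermediate filament protein that Aurora B phosphorylates, was higher, with 1964 CPM with the extract and 981 CPM in vehicle (log2 1.001), and ECT2, an exchange factor that acts in cytokinesis, rose by 0.75 on the log2 scale. Among 7 other Aurora kinases and cofactors 5 fell, 1 rose and 1 did not pass (median −0.91), beside the same shares of all genes. The sister kinase AURKA was at 41.9 CPM with the extract and 152 CPM in vehicle (log2 −1.86), its activator TPX2 changed by −0.96 and its scaffold NEDD9 by −1.33. AJUBA, another cofactor, rose by 0.995, and AURKC was barely detected, at 0.372 CPM with the extract and 0.346 CPM in vehicle. Within these lists AURKB therefore moved with AURKA in direction and by a smaller amount.

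The other 3 lists were divided, as were all genes tested (34.4% lower, 34.7% higher). Among 11 genes of phosphatases that oppose Aurora B, or of proteins that bind them, 6 fell, 3 rose and 2 did not pass (median −0.13). PPP1CA, a catalytic subunit gene of protein phosphatase 1, changed by −0.50. MKI67, whose product binds protein phosphatase 1, changed by −0.81 and PPP2R5B, a PP2A regulatory subunit gene, by 0.98. Of the 6 other genes of the inhibitor of apoptosis family, to which survivin belongs by its BIR domain, 3 rose and 3 fell (median −0.13). BIRC3 had 82.4 ± 4.06 CPM with the extract and 24.4 ± 1.004 CPM in vehicle, a log2 change of 1.75, BIRC2 rose by 0.28 and BIRC6 changed by −0.44. The relatives of survivin thus moved in both directions. Of 15 regulators of G2/M transcription, 6 rose, 7 fell and 2 did not pass (median −0.09). LIN54, the MuvB subunit that binds the CHR, rose by 0.65 and CDKN1A, the p21 inhibitor, by 0.47, whereas RBL2, the pocket protein p130, changed by −0.58. The activators FOXM1 and MYBL2 were higher, by 0.19 and 0.35 on the log2 scale.

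With the water extract at 500 µg/mL, where the median over all genes was 0.01 and 21.1% of genes passed (11.4% as lower), 3 of the 7 other Aurora kinases and cofactors fell and 1 rose (median −0.23): AURKA changed by −0.23, TPX2 by −0.25, NEDD9 by −0.38 and AJUBA by 0.46. In the centromere list 2 of 10 fell, PLK1 (log2 −0.33) and BUB1 (log2 −0.14), and 1 of 18 substrates and midzone partners did, KIF20A (log2 −0.13). BIRC3 rose there too (log2 0.32), while BIRC6 rose by 0.35 and CDKN1A changed by −0.38, both opposite in sign to their values with the ethanol extract at 500 µg/mL. These comparisons share the vehicle libraries.

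In batch 2, libraries that stand apart must be set out first. The mitochondrially encoded share was under 5% in 16 of the 75 libraries, in 14 of the 25 groups and never in vehicle, where it was 14.5 to 14.9%; over the treated libraries it ran from 0.822 to 18.9%. In 4 libraries COL1A2, a fibrillar collagen gene of mesenchymal cells, was at 496 to 595 CPM, against at most 0.899 CPM in the other 71, and the summed level of the 8 mesenchymal markers was 980 to 1208 CPM in those 4, against 31.95 to 192 CPM in the others. The sum was carried mostly by COL1A2 and COL1A1 (up to 535 CPM). COL3A1 and LUM reached 65.7 and 11.8 CPM over the 96 libraries, with medians of 9.82 and 0.48 CPM. DCN, POSTN, PDGFRB and COL6A3 reached at most 0.961, 0.128, 0.617 and 1.303 CPM in any of them. In all, 18 libraries met either description and 57 met neither. Between the libraries under and over 5%, which were not tested against each other, the members overlapped in range. CDCA8 ran from 18.9 to 38.5 CPM (median 29.4) under it and from 33.4 to 47.5 CPM (median 42.6) over it. BIRC5 ran from 141 to 254 CPM (median 203) under and from 132 to 208 CPM (median 164) over the limit. INCENP had medians of 114 and 100 CPM and AURKB of 89.5 and 85.3 CPM, with ranges that nearly coincided for AURKB (71.1 to 116 CPM under and 69.9 to 105 CPM over).

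**Figure D2:**
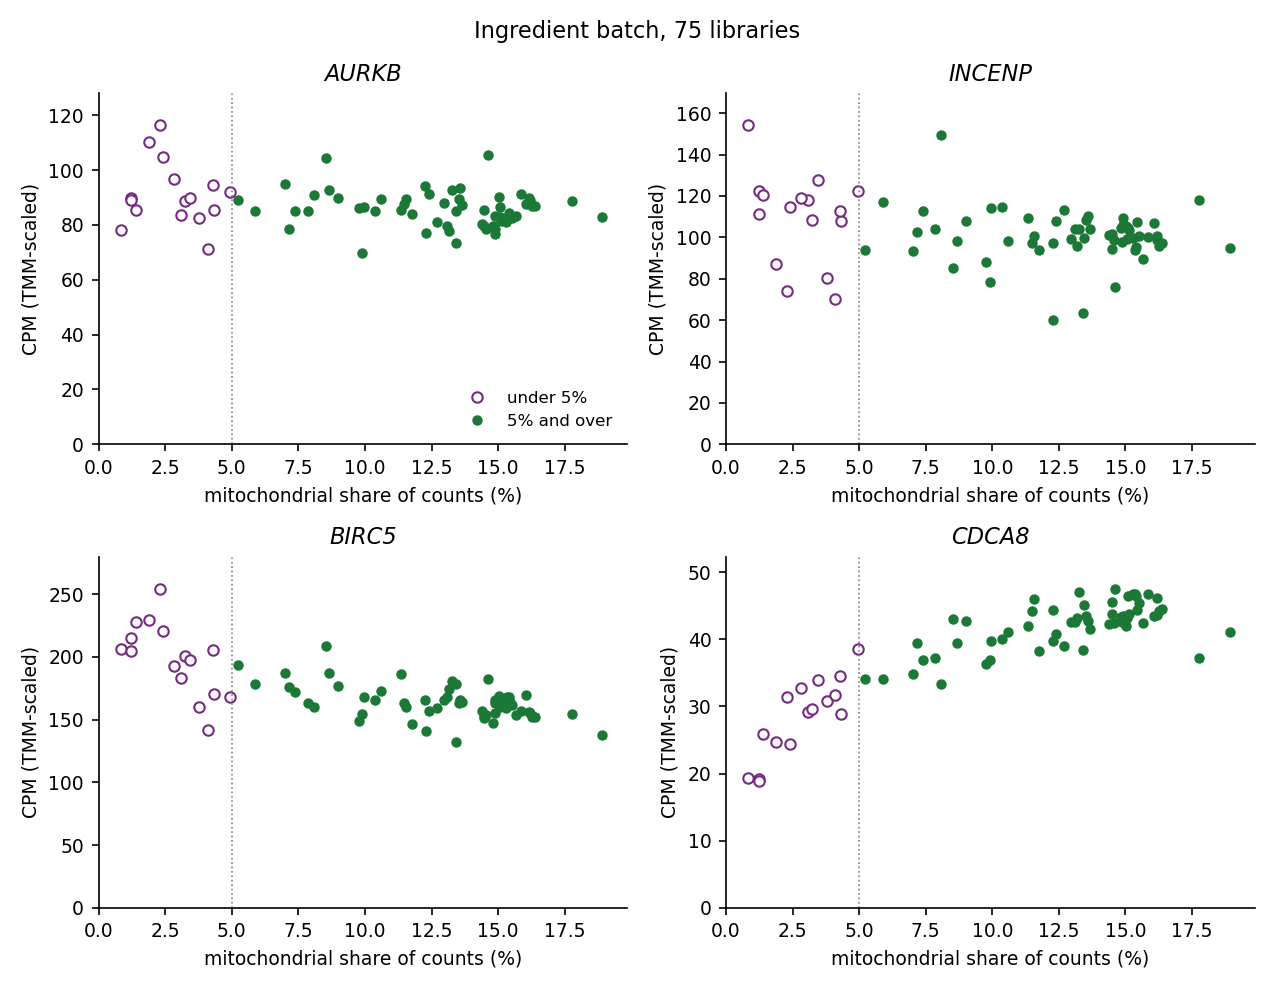
CPM of each member (vertical axes) against the share of counts from mitochondrially encoded genes (horizontal axis, percent) in the 75 batch 2 libraries; open circles are the 16 libraries under 5%. CDCA8 is low and BIRC5 mostly high in the open circles, with medians of 29.4 and 203 CPM.

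Over the 24 ingredient groups 2 calls were made on members. INCENP fell with oleanolic acid at 10 µM and BIRC5 rose with catechin at 2 µM. The percentage of the 18324 genes that passed ran from 0.0218 to 13.5 over these comparisons with a median of 0.158, and it was under 1% in 18 of the 24. In the order 0.4, 2 and 10 µM, 0.136, 0.229 and 0.191% of genes passed with paeoniflorin, 0.0382% at each dose with albiflorin, and 0.278, 0.0873 and 0.126% with paeonol. Benzoic acid gave 0.0327, 0.0218 and 0.0273%, gallic acid 0.0709, 0.611 and 13.5%, and catechin 4.66, 8.06 and 0.0655%. The triterpenes gave 3.05, 0.0546 and 2.42% with hederagenin and 0.18, 0.322 and 4.45% with oleanolic acid. Several shares moved when single libraries were left out: the 2469 genes called with gallic acid at 10 µM became 139 to 7325, the 559 with hederagenin at 0.4 µM 9 to 4719, and the 1476 with catechin at 2 µM 11 to 3591. AURKB and CDCA8 passed in none of the 24, with log2 changes of −0.13 to 0.28 and −0.48 to 0.05, and an unadjusted p under 0.05 in 4 and 2 groups. DESeq2's Wald test called AURKB and BIRC5 with hederagenin at 0.4 µM in addition. The SE of a change was about 0.09 for AURKB, 0.14 for INCENP, 0.13 for BIRC5 and 0.23 for CDCA8, and the 95% intervals over the 24 groups reached from −0.32 to 0.47 for AURKB, −0.99 to 0.57 for INCENP, −0.40 to 0.68 for BIRC5 and −0.93 to 0.50 for CDCA8.

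**Figure D3:**
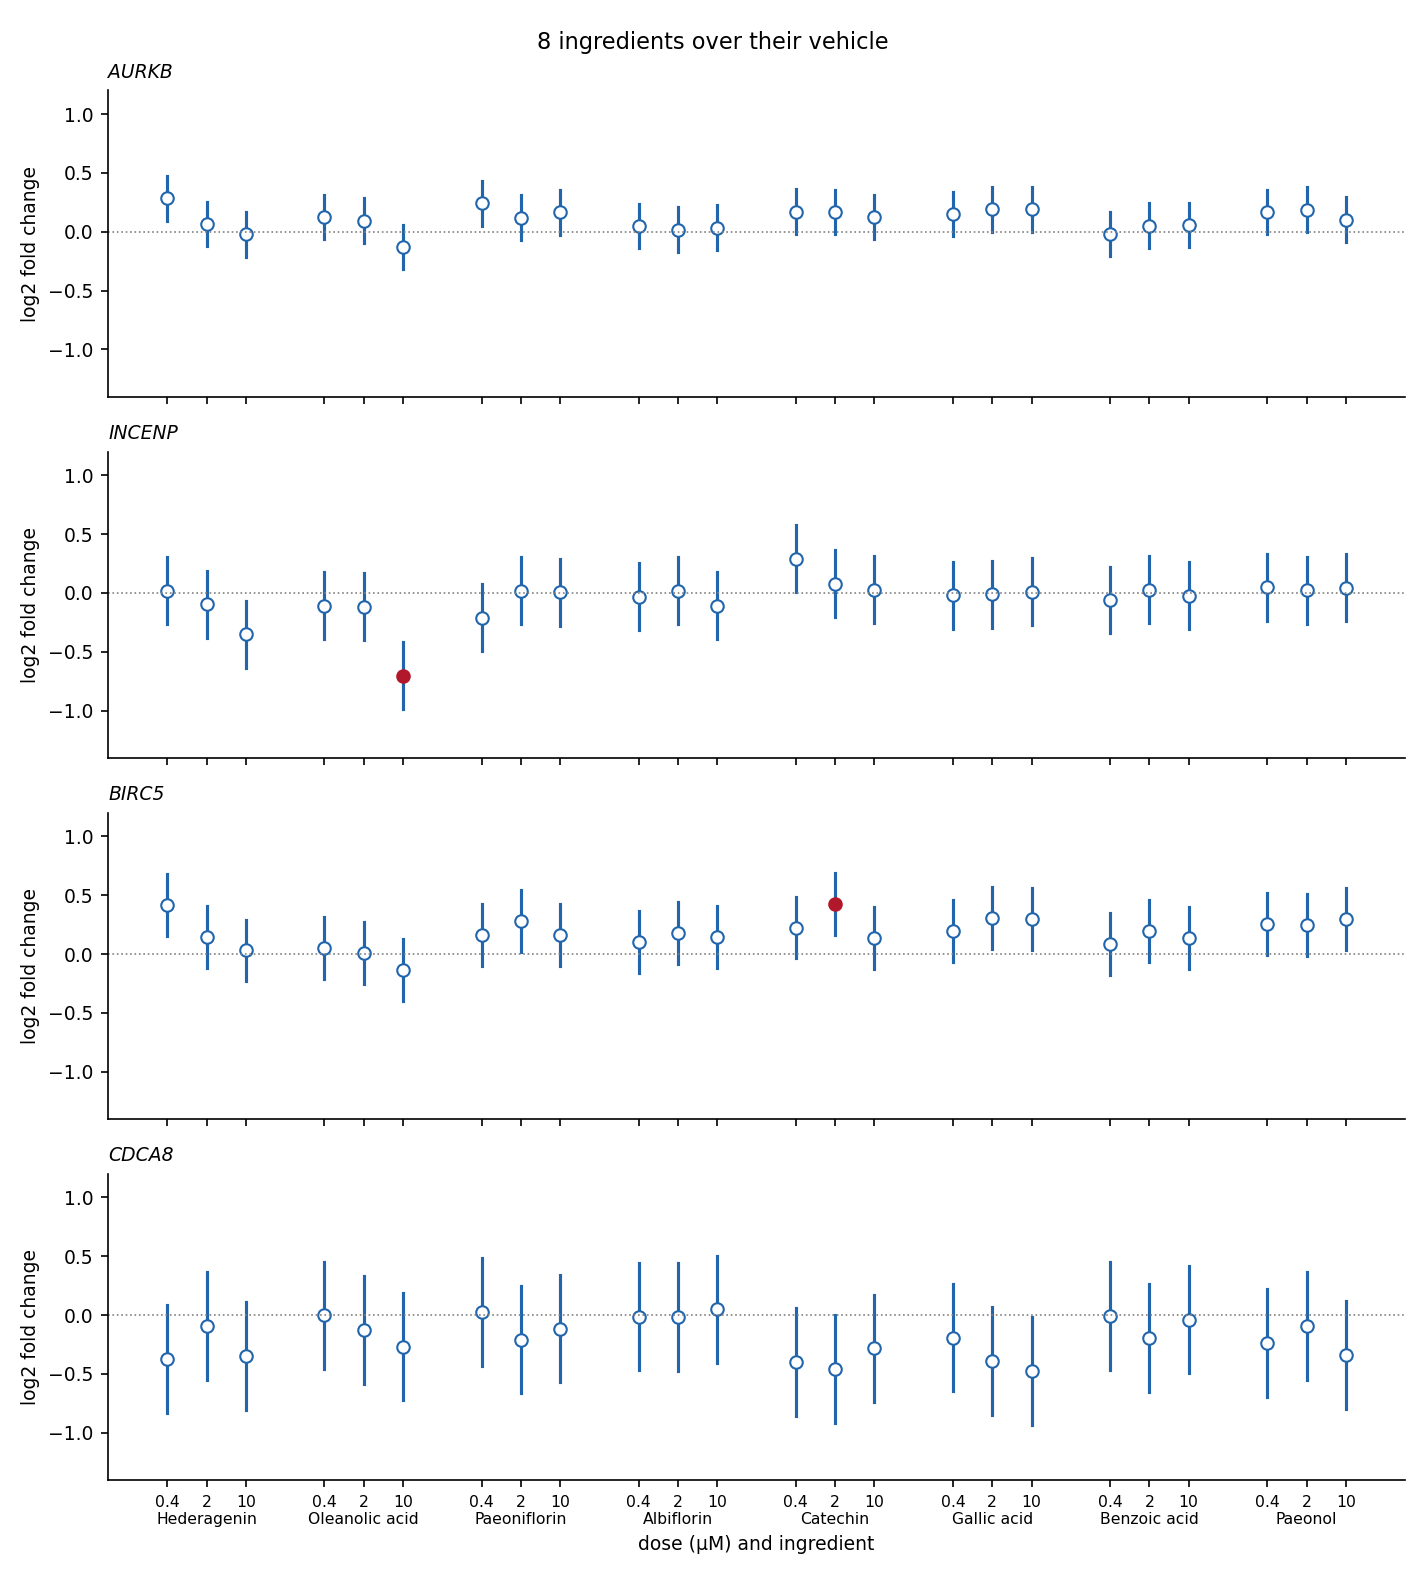
Log2 change of each member against the batch 2 vehicle with its 95% interval (edgeR, 3 libraries a group) for the 8 ingredients at 0.4, 2 and 10 µM; red marks the values past an adjusted p of 0.05. INCENP with oleanolic acid at 10 µM (−0.70) and BIRC5 with catechin at 2 µM (0.42) are marked.

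INCENP fell with the highest dose of oleanolic acid, a pentacyclic triterpene acid. It had 63.7, 59.96 and 70.4 CPM at 10 µM, against 101.8, 104.7 and 109.3 CPM in vehicle, and the groups were far apart. The means were 64.7 ± 5.31 CPM at 10 µM and 105.3 ± 3.76 CPM in vehicle (SD, n = 3 each), a log2 change of −0.70 with SE 0.14 (95% interval −0.99 to −0.42) and an edgeR adjusted p of 0.000793, where 4.45% of genes passed and 1.87% passed as lower. The 10 µM library with 70.4 CPM had a mitochondrial share of 4.11%, and without the libraries under 5% the change was −0.77. At 2 µM the libraries had 107.9, 89.5 and 93.7 CPM (log2 −0.12) and at 0.4 µM 98.6, 97.2 and 97.1 CPM (log2 −0.11), neither past the threshold. The difference of 10 against 0.4 µM was −0.59 (SE 0.14, edgeR adjusted p = 0.0082), where 2.47% of genes passed (1.02% as lower), and without replicate 2 of the 10 µM group it was −0.54 and no longer passed (edgeR adjusted p = 0.0741).

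The other members were not called with oleanolic acid at 10 µM. AURKB had 73.3, 77.01 and 71.1 CPM, against 79.5, 79.5 and 83.2 CPM in vehicle, −0.13 in log2 units (edgeR adjusted p = 0.566). BIRC5 had 132.1, 140.9 and 141.3 CPM, against 151.7, 147.6 and 155.0 CPM in vehicle (log2 −0.13), and CDCA8 had 38.4, 39.8 and 31.7 CPM, against 45.6, 43.4 and 43.5 CPM in vehicle (log2 −0.27). None of the 3 changes passed the test. The log2 ratio of INCENP to AURKB was −0.19 ± 0.17 with oleanolic acid and 0.38 ± 0.02 in vehicle (SD, n = 3 each), with an exact permutation p of 0.1, the smallest possible.

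In the lists, 2 of the 10 genes of centromere recruitment fell with oleanolic acid at 10 µM, BUB1 (74.5 ± 2.75 CPM, against 104 ± 4.99 CPM in vehicle, log2 −0.49) and BUB1B (log2 −0.40), and so did 4 of the 18 substrates and midzone partners. These were the kinetochore genes KNL1 (log2 −0.61) and NDC80 (log2 −0.38), the condensin subunit gene NCAPH (log2 −0.40) and RACGAP1 of the centralspindlin complex (log2 −0.27). Over all genes 1.87% passed as lower. No gene of the other 4 lists was called, and the medians were −0.35 for centromere recruitment, −0.25 for substrates and midzone partners and 0.01 over all genes.

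Hederagenin differs from oleanolic acid by an added hydroxyl group. INCENP had 78.6, 88.02 and 80.6 CPM with hederagenin at 10 µM, below every vehicle library, a log2 change of −0.35 (SE 0.14, 95% interval −0.64 to −0.07) that missed the threshold (edgeR adjusted p = 0.205), where 2.42% of genes passed. It passed in 4 alternatives, among them the fit without the libraries under 5% (log2 −0.34, edgeR adjusted p = 0.0128). In that fit 2371 genes were called, against 444 with all libraries, while the INCENP estimate hardly moved. The log2 ratio of INCENP to AURKB was 0.06 ± 0.10 with hederagenin, against 0.38 ± 0.02 in vehicle (exact permutation p = 0.1). Set directly against oleanolic acid at 10 µM, INCENP with hederagenin was higher by 0.35 on the log2 scale (95% interval 0.06 to 0.63), which did not pass in edgeR's test over all genes (adjusted p = 1, with 0.0109% of genes passing). Without the libraries under 5% that difference was 0.43 and passed (edgeR adjusted p = 0.0442), where 73 genes were called, against 2 with all libraries. That fit left out 1 of the 3 libraries of each triterpene group at 10 µM. At 2 and 0.4 µM the INCENP differences between the triterpenes were 0.02 (95% interval −0.26 to 0.30) and 0.13 (−0.16 to 0.41).

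**Figure D4:**
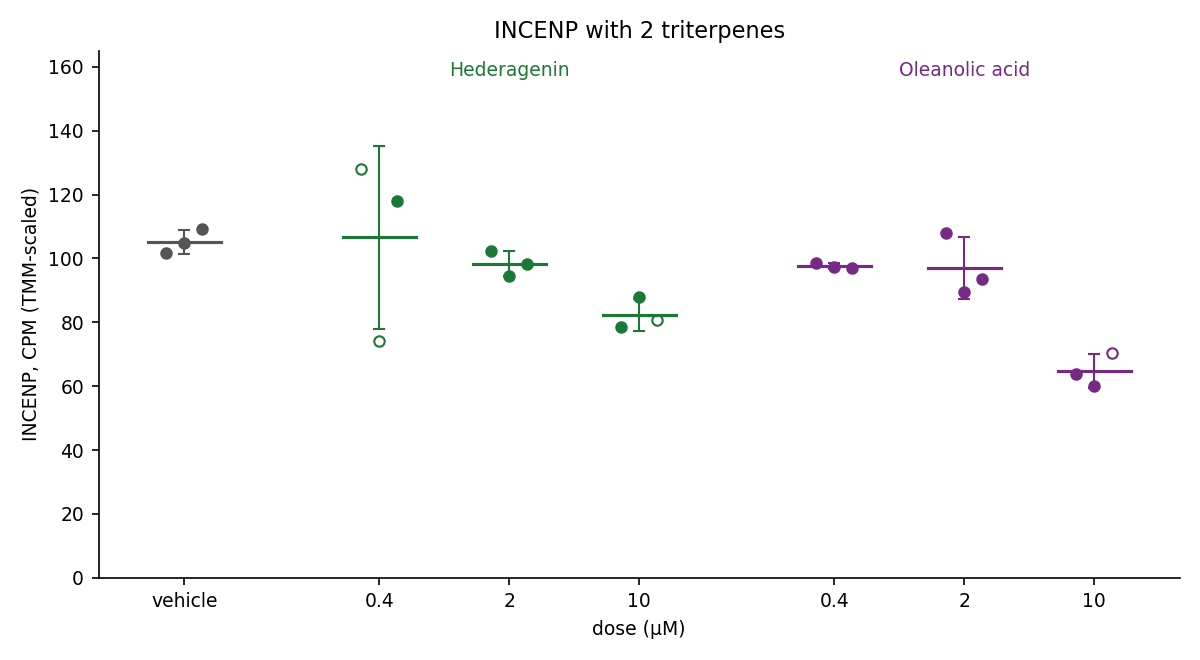
INCENP CPM (vertical axis, from 0) in each library of vehicle and of hederagenin and oleanolic acid at 0.4, 2 and 10 µM; bars are the mean ± SD of 3, and open circles are libraries with a mitochondrial share under 5%. At 10 µM the hederagenin libraries (78.6 to 88.02 CPM) lie above the oleanolic acid libraries (59.96 to 70.4 CPM), and both groups lie below vehicle.

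With hederagenin at 0.4 µM the members split by library. Replicate 2 had 116 CPM of AURKB, 254 CPM of BIRC5 and 74.01 CPM of INCENP, whereas the other libraries had 88.7 and 89.7 CPM of AURKB, 155 and 198 CPM of BIRC5 and 118 and 128 CPM of INCENP. The mitochondrial shares were 3.44, 2.29 and 17.8% in replicates 1, 2 and 3. The log2 changes against vehicle were 0.28 for AURKB and 0.42 for BIRC5 (edgeR adjusted p = 0.0666 and 0.0572, with 3.05% of genes passing). Without replicate 2 they were 0.14 and 0.22.

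Catechin, a flavan-3-ol, gave the only higher call. BIRC5 had 206.1, 193.7 and 208.5 CPM at 2 µM, against 151.7, 147.6 and 155.0 CPM in vehicle. The means were 202.8 ± 7.91 CPM with catechin and 151.4 ± 3.69 CPM in vehicle (SD, n = 3 each), a log2 change of 0.42 (SE 0.13, edgeR adjusted p = 0.0448) in a comparison where 8.06% of genes passed, 4.5% as higher. The mitochondrial shares of the 3 catechin libraries were 0.822, 5.23 and 8.54%, all below the vehicle range. The library with 193.7 CPM is also 1 of the 4 with high COL1A2 (496 CPM), so 2 of the 3 catechin libraries stand apart. With the mitochondrial share as a covariate the change was 0.17 and did not pass (edgeR adjusted p = 0.398). Without replicate 1 of catechin, or without any of the vehicle libraries, it did not pass either (log2 0.40 to 0.44, edgeR adjusted p up to 0.118). CDCA8 in the same libraries had 19.3, 34.1 and 42.96 CPM, in the order of those shares, against 43.4 to 45.6 CPM in vehicle (log2 −0.46, edgeR adjusted p = 0.127), and INCENP 154.1, 93.7 and 85.4 CPM, against 101.8 to 109.3 CPM in vehicle (log2 0.08). Without the libraries under 5% that INCENP change was −0.23 and passed (edgeR adjusted p = 0.0468). In that fit 7471 genes were called, against 1476 with all libraries, and the catechin library with high COL1A2 was kept. At 0.4 and 10 µM the BIRC5 means were 177 and 166 CPM (log2 0.22 and 0.14), neither called.

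AURKB, the gene named by the title, was called with none of the other ingredients either. Its means at 0.4, 2 and 10 µM were 95.4, 87.7 and 90.5 CPM for paeoniflorin and 83.5, 81.7 and 82.7 CPM for albiflorin, its isomer. Gallic acid gave 89.7, 92.2 and 92.2 CPM and benzoic acid, which lacks its hydroxyl groups, 79.8, 83.7 and 84.001 CPM. Paeonol, a phenolic ketone, gave 90.6, 91.99 and 86.7 CPM, catechin 90.9, 90.7 and 87.97 CPM, and vehicle 80.7 ± 2.10 CPM. Most of these means lay above vehicle, and none passed the test. CDCA8 had its lowest mean with gallic acid at 10 µM, 31.7 ± 8.54 CPM from libraries at 24.4, 41.1 and 29.6 CPM with mitochondrial shares of 2.40, 18.9 and 3.25%, in the same order.

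By mean over the 25 groups of batch 2, oleanolic acid at 10 µM was lowest for AURKB (73.8 CPM), INCENP (64.7 CPM) and BIRC5 (138 CPM). The highest groups were hederagenin at 0.4 µM for AURKB (98.2 CPM), catechin at 0.4 µM for INCENP (129 CPM), catechin at 2 µM for BIRC5 (203 CPM) and albiflorin at 10 µM for CDCA8 (45.7 CPM). Neighbouring groups in that order overlapped, except oleanolic acid at 10 µM, whose libraries lay below those of hederagenin at 10 µM for INCENP and below vehicle, the next group, for BIRC5.

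Of the 8 comparisons of 10 against 0.4 µM, the INCENP difference with oleanolic acid was the only one called on a member. Beside its 2.47%, the genes passing in these comparisons were 1.05% with hederagenin, 0.557% with gallic acid and 0% in edgeR's test with the other 5 ingredients. With those 5, 108 to 875 of the 18324 genes had an unadjusted p under 0.05 in edgeR. Each number is below the 5% that no difference would give. DESeq2's Wald test called 2 to 12 genes there. The related ingredients were compared in 9 pairs at matched dose (hederagenin with oleanolic acid, gallic with benzoic acid, paeoniflorin with albiflorin), and no member passed in any, with an unadjusted p under 0.05 once each for AURKB, INCENP and BIRC5. Over all genes 8.7% passed between gallic and benzoic acid at 10 µM, 0.0109% between the triterpenes at 10 µM, and 0% in edgeR's test in the other 7 pairs. In those 7 pairs 346 to 3211 of the 18324 genes had an unadjusted p under 0.05 in edgeR, some numbers below and some above 5%. DESeq2's Wald test called 3 to 19 genes there. The widest interval bounds over the 9 pairs were −0.22 and 0.38 for AURKB, −0.46 and 0.63 for INCENP, −0.24 and 0.63 for BIRC5 and −0.90 and 0.50 for CDCA8 on the log2 scale. These bounds are extremes over the pairs, and single intervals were narrower, such as −0.22 to 0.16 for AURKB between the triterpenes at 2 µM. Some intervals reached past the size of the INCENP change with hederagenin at 10 µM and some did not. The farthest point estimate was that of CDCA8 between gallic and benzoic acid at 10 µM, −0.44 (95% interval −0.90 to 0.02).

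The shared pattern of the members in batch 1 rested on 1 group. Over its 21 libraries the pairwise Pearson r of their log2 CPM was 0.94 to 0.97, and over the 18 libraries without the ethanol extract at 500 µg/mL it was −0.04 to 0.27. In batch 2 (75 libraries) r was 0.63 for AURKB with BIRC5 (Spearman coefficient 0.49) and −0.60 for BIRC5 with CDCA8 (Spearman coefficient −0.38), and over the 57 libraries that met neither description it was 0.51 and 0.13. These values describe libraries that share vehicle, batch and composition. The genes most like the mean of the members in batch 1 were NOP56, KIF20A, KPNA2, HNRNPAB and CDC20 (r of 0.99 each), with r of 0.32 to 0.57 over the 18 libraries. In batch 2 they were FGB (r 0.85), RRM2 (0.84), FGG (0.79) and POLA2 (0.77), over 75 libraries. Their Spearman coefficients were 0.61, 0.62, 0.45 and 0.64. The members themselves had r of only 0.59 (AURKB), 0.56 (INCENP), 0.40 (BIRC5) and 0.31 (CDCA8) with that mean. Likeness to the mean in batch 2 is therefore not likeness to each member.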

How the data were processed

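RNA of A549 cells was sequenced from libraries made with the MGIEasy RNA Directional kit, per the labels' protocols. The authors deposited expected counts per gene, made with FastQC, Trim Galore, STAR and RSEM 1.3.3 on GRCh38 (hg38), per the submitters' processing notes. The strand setting of the counting was not given in the sources used here, and RSEM divides reads that fit several genes among them. Of the deposited expected counts 89.2% were whole numbers, and all were rounded. No 2 replicates of a group were identical (0 of 96 pairs).

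Each batch was fitted alone with edgeR 4.0.16 in R 4.3.3 (TMM factors, filterByExpr, quasi-likelihood F-test, 1 coefficient per group), which left 16854 genes in batch 1 and 18324 in batch 2. Adjusted p-values are Benjamini-Hochberg values over all genes of a comparison, with a threshold of 0.05, in 54 comparisons (13 and 41). Log2 changes are treated minus vehicle, or higher dose minus lower. Median totals were 23.2 M counts in batch 1 and 23.7 M in batch 2. The alternatives were DESeq2 1.42.0, its size factors, no filter, only the groups compared, replicate numbers as a block, each replicate left out, and in batch 2 libraries left out for COL1A2 above 100 CPM or a mitochondrial share under 5%. The fit was also run on simulated counts with known changes. These held no libraries with a low mitochondrial share or high COL1A2, so they do not test the fit on such libraries.

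The members and lists were chosen with earlier results of these data known. From each list the text names the 3 genes with the smallest p with the ethanol extract at 500 µg/mL against vehicle, and for likeness the 5 with the highest r of log2 CPM (prior count 2), of which 1 in batch 2 is not reported here. HASPIN, CDK1, ECT2, AJUBA, AURKC, FOXM1 and MYBL2, PLK1 with the water extract, and the genes called with oleanolic acid were named after their values were seen.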

Additional observations from a re-analysis of the deposited data

How the results depend on the processing

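The falls of the 4 members with the ethanol extract at 500 µg/mL, against vehicle, the water extract at that dose and 100 µg/mL, passed in every alternative run, and so did the fall of INCENP with oleanolic acid at 10 µM (log2 −0.78 to −0.65 over 15 alternatives, edgeR and DESeq2 adjusted p at most 0.012). Every pair of same-numbered libraries correlated over 0.1 in 2 of 54 comparisons, both in batch 2, so the numbers were not taken to pair the libraries. In 7 of 54 every library correlated best with its own number, and replicate 1 was the lowest AURKB library in all 7 groups of batch 1. With the replicate block, 215 of 216 member values kept their call and AURKB became lower with the water extract at 20 µg/mL (1 call, against 0; edgeR adjusted p = 0.0192 for AURKB: water extract 20 ug/mL against vehicle batch 1). The block moved the genes called from 299 to 451 between the extracts at 100 µg/mL, from 301 to 516 between ethanol 100 and 20 µg/mL, and from 195 to 309 between water 500 and 100 µg/mL. DESeq2's size factors changed none of 216 values, the low-count filter 3, and fitting only the groups compared 11. The 2 alternatives with the mitochondrial share as a covariate and without both sets of libraries (COL1A2 above 100 CPM, mitochondrial share under 5%), and the correlations without the ethanol extract at 500 µg/mL, were chosen after seeing the data.

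Counts of members called lower with the ethanol extract at 100 and 20 µg/mL and the water extract at 100 µg/mL were 1 each and became 0 when only the groups compared were fitted, and for ethanol 100 and water 100 also with no filter. Leaving out each replicate gave 0 to 1 for each, and 0 to 1 higher for the water extract at 100 and 20 µg/mL (against 0, with the 1 found without vehicle replicate 2). Without that vehicle library 2399 and 1924 genes were called, against 2116 and 1602. In batch 2, hederagenin at 10 µM had 2 lower (2 groups only, without the libraries under 5%, or both sets out) or 1 (covariate), against 0. The genes called in those fits were 2901, 2371, 2805 and 1615 in that order, against 444. Hederagenin at 0.4 µM had 2 higher by DESeq2's Wald test and without the COL1A2 libraries, and 0 to 2 without single replicates (2 without its replicate 3), against 0. The genes called were 1634 by the Wald test, 1321 without the COL1A2 libraries and 4719 without replicate 3, against 559. Catechin at 2 µM had 0 higher with the covariate or no filter and 2 without the libraries under 5% or both sets, against 1, and 2 lower without the libraries under 5% or 1 without both, against 0; single replicates gave 0 to 1 in each direction. Catechin at 0.4 µM had 1 lower (2 groups, without the libraries under 5%, both), 2 higher (2 groups) and 1 higher (the other exclusions), against 0. The genes called there were 6052 (2 groups), 5754 (without the libraries under 5%) and 6269 (both), against 854. Oleanolic acid at 10 µM had 2 lower without both sets, against 1. Without the libraries under 5% or both sets, paeoniflorin at 0.4 µM had 1 higher, and with only 2 groups fitted albiflorin and benzoic acid at 10 µM had 1 higher each, all against 0. Genes called were 1353 and 1781 for paeoniflorin (against 25), 1442 for albiflorin (against 7) and 468 for benzoic acid (against 5). Gallic acid had 0 to 1 lower and 0 to 2 higher at 10 µM (1 and 2 without replicate 2) and 0 to 1 higher at 2 µM (1 without replicate 3), and 1 lower at 2 µM without both sets, against 0. Without replicate 2 at 10 µM 7325 genes were called, against 2469. At 2 µM 2867 were called without replicate 3 and 1494 without both sets, against 112. Among doses, hederagenin 10 against 0.4 µM had 2 lower (covariate) and 0 to 2 without single replicates, against 0. Genes called there were 870 (covariate) and 98 to 491 (single replicates), against 192. Either exclusion left hederagenin at 0.4 µM with 1 library, so calls in those fits are not given. Oleanolic acid 10 against 0.4 µM had 2 lower (covariate, 2 groups, both) and 0 to 1 without single replicates, against 1. For that oleanolic acid comparison 1461 (covariate), 1226 (2 groups) and 1961 (both) genes were called, against 453. Among pairs, hederagenin over oleanolic acid at 10 µM had 1 higher (either exclusion), and single replicates gave 0 to 1 for that pair at 0.4 µM and, in each direction, for gallic over benzoic acid at 10 µM (1 without gallic acid replicate 2). Genes called were 73 and 176 in the exclusions, against 2, and 7151 without gallic acid replicate 2, against 1594. For INCENP: Catechin 2 uM against vehicle batch 2, the log2 change of 0.08 became −0.23 without the libraries under 5% (edgeR adjusted p = 0.0468). Without both sets it was −0.30, a value that rests on 1 catechin library. Without the libraries under 5% that comparison called 7471 genes, against 1476. The causes were not tested.

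Numbers of genes called moved more than the members did. With oleanolic acid at 10 µM they were 337 (no filter) to 3864 (both sets out), against 815, with catechin at 2 µM 69 (covariate) to 7471 (without the libraries under 5%), against 1476, and with hederagenin at 10 µM 168 to 2901, against 444. Gallic acid at 10 µM had 0 (2 groups only) or 240 (without the libraries under 5%), against 2469. With the ethanol extract at 20 µg/mL fitting only 2 groups gave 108, against 1255, and with no filter the 2 extracts at 20 µg/mL differed in 88 genes, against 0. Leaving out libraries left 2 groups (under 5%: hederagenin at 0.4 µM and gallic acid at 10 µM) or 3 groups (both sets: also catechin at 2 µM) with 1 library. That library was assumed to vary like the others. CDCA8 was the member with the fewest counts.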
